A study of Mus musculus with 12 samples.

Results

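The genes described here are 39 erythroid genes: the adult globins and their chaperone, the enzymes of heme synthesis, mitochondrial carriers and iron uptake, proteins of the red cell membrane, red cell enzymes, erythroid regulators and genes of late maturation. They were taken as a fixed list of symbols and matched to the Ensembl IDs of a table of 55421 genes. A total of 38 had an ID and all 38 passed the filter on low counts, so that they are 38 of the 15999 genes tested; Ahsp, the chaperone of alpha-globin, is named only. RNA came from bone marrow cells that were sorted as endothelial cells from 12 mice of 20 weeks, 1 library a mouse and 3 mice a group: naive C57BL/6J controls, C57BL/6J mice made hypertensive by chronic angiotensin II, atherosclerotic Apoe knockout mice (Apoe(tm1Unc)) that were fed a western diet, and C57BL/6J mice after acute myocardial infarction (MI) by permanent coronary ligation, on day 2 in the labels and day 4 in the study's text. The controls received neither a sham operation nor a saline pump, and the atherosclerosis group differs from them in genotype and in diet at once. Lineage depletion and the sort gate both removed cells that carry TER-119, an antigen of the red cell surface, and the gate took CD45-, CD41-, CD31hi and SCA-1+ cells. Libraries of the 4 groups carry the replicate numbers 2, 3 and 4, and the 3 controls serve in every comparison with control. The labels do not say whether mice were handled together, so that the spread between libraries may include technical differences.

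Red cells arise in the marrow from progenitors that switch on GATA1, TAL1 and KLF1, transcription factors that bind GATA and CACCC motifs at globin, heme and membrane genes. The developing erythroblast takes up iron through the transferrin receptor, builds heme in steps that run between mitochondrion and cytosol and joins it to globin chains, while spectrin, ankyrin and band 3 assemble beneath its membrane. It then clears its organelles and expels its nucleus, and the reticulocyte that is left keeps globin mRNA for a time after transcription has ended.

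The adult beta-globins Hbb-bs (chr7:103826534-103828096, minus strand) and Hbb-bt (chr7:103812524-103813996, minus strand) and the alpha-globins Hba-a1 (chr11:32283511-32284465, plus strand) and Hba-a2 (chr11:32296489-32297298, plus strand) are near-identical copies, and their sequences (GENCODE M21, GRCm38) are shown because they limit what short reads can assign. The coding sequences of Hbb-bs and Hbb-bt differ at 1 of 444 bases, and those of Hba-a1 and Hba-a2 at 1 of 429 bases. In the stretches of 51 bases around that base, counted from the first base of the start codon (392 to 442 in the beta-globins, 356 to 406 in the alpha-globins), the capital marks the base that differs.
Hbb-bs: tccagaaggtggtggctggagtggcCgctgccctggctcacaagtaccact
Hbb-bt: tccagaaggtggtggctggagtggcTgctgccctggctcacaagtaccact
Hba-a1: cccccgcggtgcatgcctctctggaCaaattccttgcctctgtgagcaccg
Hba-a2: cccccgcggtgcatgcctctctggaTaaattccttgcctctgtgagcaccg
Of all 50-base windows in the annotated transcripts, 53.2% of those of Hbb-bs and 58.3% of those of Hbb-bt also occur in the other copy, and the shares are 72.3% for Hba-a1 and 89.3% for Hba-a2. Reads that fit 2 places were not counted, so that they are missing from the globin levels, and the split between copies is uncertain. Among the other members, 20.8% of the windows of Bnip3l and 13.4% of those of Car1 recur in another gene, and the share was at most 6.99% for the rest.

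Promoters of 28 of the 39 members were found in the RefSeq table of GRCm38.p6, and 4 are shown, those of 2 globins, of Klf1 and of Kel. Of these genes, Klf1 and Kel varied together across libraries, and Hbb-bt varied with Car2, as described below. Hba-a2 had the weakest r of the globins with both references used there, 0.53 with Car2 and -0.24 with Klf1 over 12 libraries. The stretches lie within the 250 bases before the RefSeq start site and end before the first base of any annotated transcript of the gene: Hba-a2 chr11:32296242-32296488 (plus strand), Hbb-bt chr7:103813997-103814173 (minus strand), Klf1 chr8:84901732-84901927 (plus strand) and Kel chr6:41704340-41704575 (minus strand). Capitals mark GATAA and CACCC on either strand (TTATC and GGGTG when read on the other strand).
Hba-a2: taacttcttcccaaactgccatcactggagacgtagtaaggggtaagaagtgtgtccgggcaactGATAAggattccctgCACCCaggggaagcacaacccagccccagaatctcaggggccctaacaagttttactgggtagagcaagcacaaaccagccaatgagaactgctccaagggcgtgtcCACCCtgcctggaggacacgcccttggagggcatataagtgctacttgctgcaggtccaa
Hbb-bt: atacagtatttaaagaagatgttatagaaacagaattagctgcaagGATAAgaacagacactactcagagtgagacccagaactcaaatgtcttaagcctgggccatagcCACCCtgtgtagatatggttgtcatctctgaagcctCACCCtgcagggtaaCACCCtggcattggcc
Klf1: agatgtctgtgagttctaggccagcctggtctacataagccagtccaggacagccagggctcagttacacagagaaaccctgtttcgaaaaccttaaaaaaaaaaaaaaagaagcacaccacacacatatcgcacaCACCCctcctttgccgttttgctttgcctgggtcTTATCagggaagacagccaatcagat
Kel: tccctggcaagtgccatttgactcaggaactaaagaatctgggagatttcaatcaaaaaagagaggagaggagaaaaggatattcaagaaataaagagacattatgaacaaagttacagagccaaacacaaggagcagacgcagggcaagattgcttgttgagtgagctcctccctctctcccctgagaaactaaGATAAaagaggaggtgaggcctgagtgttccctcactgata
Over the full 250 bases, GATAA was present for 16 of 28 members (57.1%) and for 25.5% of all 27025 symbols in the table. CACCC was present for 21 of 28 members (75.0%) and for 54.5% of all symbols, and both for 13 members (46.4%) and 11.5% of all symbols. The globin genes, Alas2, Klf1 and Kel hold both motifs, and Gata1 and Tfrc hold CACCC alone; the CACCC of Kel lies outside the stretch shown. A match of 5 letters is a description of these windows and not a binding site.

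Total counts were between 17007088 and 25136936 per library, and the 38 members took between 2.17% (atherosclerosis replicate 2) and 5.52% (atherosclerosis replicate 3) of them, with a median of 3.54%. Counts of single members ranged from 615 to 370398 per library, far above the 3 counts (0.116 to 0.176 CPM) taken as the smallest measured amount. CPM (counts per library size on the usual CPM scale) were computed with TMM factors, except for the values of Cdh5, Ptprc and Apoe in this paragraph. Those 3 genes were scaled by total counts alone. The label of the cells was checked against its markers: Cdh5, a junction protein specific to endothelium, was at 2.02 to 4.30 CPM and the 12 endothelial markers summed to 109.5 to 228 CPM, whereas 13 neutrophil markers summed to 34088 to 99231 CPM and the 38 erythroid members to 21092 to 58682 CPM. Ptprc, which encodes the CD45 antigen that was gated out, was at 432 to 838 CPM. Apoe averaged 10.8 CPM in the knockout libraries and 697 to 891 CPM in the other groups. Since these are bulk samples, fewer cells of a type and less RNA per cell cannot be told apart. Between libraries of one group log2 counts correlated with r between 0.948 and 0.986 across genes, so that no pair held identical values.

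Per kilobase of merged exons, Hbb-bs was the highest member with a median of 5678 CPM per kb over the 12 libraries, followed by Car2 (carbonic anhydrase 2, 4640), Hba-a1 (2443), Hbb-bt (2035) and Hba-a2 (1667). Rhd, a protein of the Rh complex, came next at 893 CPM per kb, and Klf1 followed at 430.0. The lowest levels per kilobase were those of Tal1 (10.2) and Ank1 (4.43), the ankyrin of the red cell membrane. The embryonic globins Hbb-y, Hbb-bh1 and Hba-x did not pass the filter and had 0 to 16 counts in any library. The spread over libraries differed between members: the highest library exceeded the lowest by 7.65-fold for Car2, 6.54-fold for Hbb-bt, 5.42-fold for Klf1 and 5.08-fold for Hbb-bs, but by 1.43-fold for Ank1 and 1.70-fold for Urod. The heat map of all members shows both the libraries and the genes in which this spread lies.

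**Figure D1:**
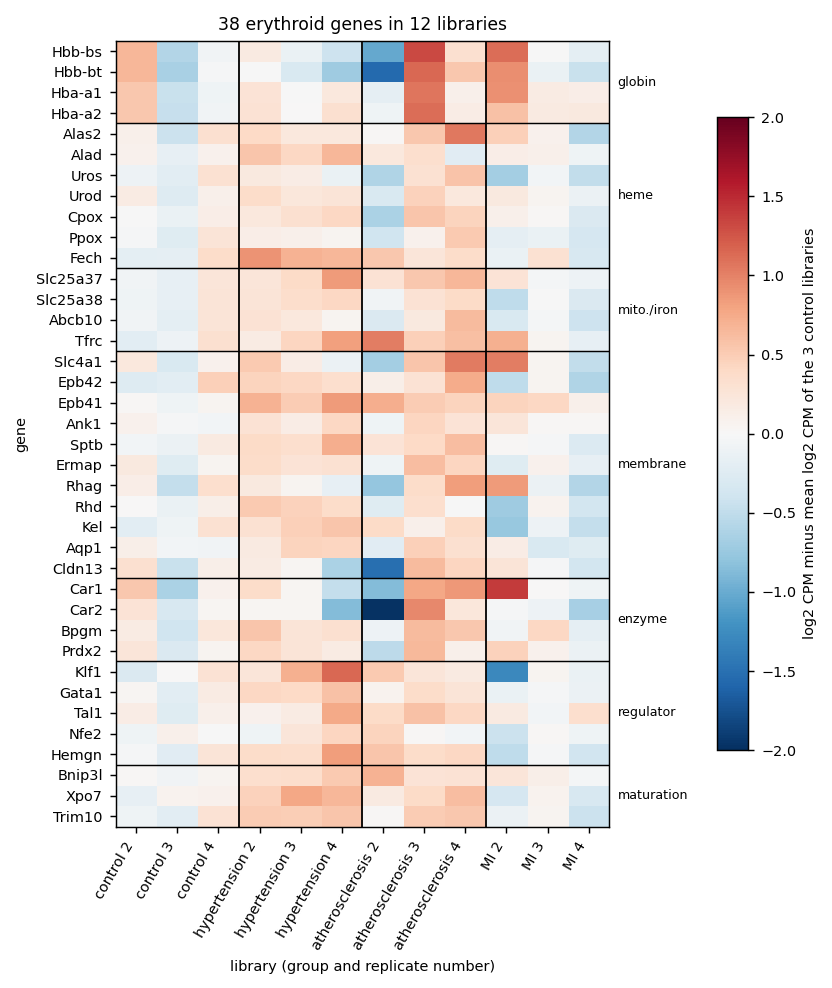
Heat map of 38 erythroid genes (rows, in blocks by role) in 12 libraries (columns), coloured by log2 CPM minus the mean log2 CPM of the 3 control libraries, from -2 (blue) to 2 (red). Atherosclerosis replicate 2 was low in beta-globins, Cldn13 and Car2, and MI replicate 2 was high in globins and Car1 and low in Klf1.

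No member was called at an adjusted p under 0.05 in any of the 6 comparisons (edgeR quasi-likelihood test, Benjamini-Hochberg adjustment over 15999 genes). In hypertension against control 0% of all genes were called, in atherosclerosis 0.144% and after MI 0%. The largest difference of a member from control was 0.73 on the log2 scale (Fech in hypertension). The counts that follow describe on which side of control the members lay, beside the same counts over all genes, and a p that misses the threshold does not show that levels were equal.

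In hypertension 32 of 38 members lay above the controls and 6 below, with a median log2 fold change of 0.32, while the median of all genes was -0.01. Of all genes 48.1% lay above the controls. At an unadjusted p under 0.05 there were 12 members, all higher (31.6%), beside 3.71% of all genes in either direction. The 3 hypertension libraries lay above all 3 control libraries for 18 members (47.4%) and below them for 0; over all genes these shares were 9.02% and 7.81%. Those 18 members were 4 of 7 in heme synthesis, 2 of 4 in mitochondrial transport and iron, 6 of 11 at the membrane, 1 of 4 enzymes, 2 of 5 regulators and 3 of 3 in maturation, and 0 of 4 globins. The count of 12 members was 6 (15.8%) without control replicate 3, beside 1.85% of all genes, and 6 without hypertension replicate 4, beside 1.45%. In these libraries the summed neutrophil markers (13 of 13 past the filter) were at 37292 to 54440 CPM beside 59012 to 81585 CPM in controls. Of the other lists, 8 monocyte markers (1174 to 1357 beside 1370 to 1936 CPM) and 8 of stem and progenitor cells (107 to 112 beside 113 to 116) were also below all controls. The 15 proliferation markers were above them (8611 to 9330 beside 7133 to 8393 CPM), and 12 macrophage markers, at 1537 to 2065 beside 1258 to 1557 CPM, overlapped. Their part in the result was not tested.

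In atherosclerosis all 38 members had a fitted value above control, between 0.05 and 0.70 on the log2 scale, with a median of 0.33 beside 0.01 for all genes. Of all genes 51.95% lay above control. A total of 8 members had an unadjusted p under 0.05 (21.1%), all higher, beside 5.97% of all genes. The libraries did not overlap with the controls for 8 members (21.1%), all higher, and for 0 lower, beside 5.06% and 4.45% of all genes. This excess over all genes did not hold when some libraries were left out. There were 4 members (10.5%) beside 10.6% of all genes without atherosclerosis replicate 3, 4 (10.5%) beside 9.56% without atherosclerosis replicate 4, and 1 (2.63%) beside 4.16% without control replicate 3. There were 4 (10.5%) beside 5.41% without control replicate 2, 12 (31.6%) beside 4.63% without control replicate 4 and 15 (39.5%) beside 5.68% without atherosclerosis replicate 2. When atherosclerosis replicate 3 was left out, 28 of 38 members lay above control. The macrophage markers, at 1792 to 2170 CPM, were above all controls. So were 5 plasma cell markers, at 1379 to 1719 beside 934 to 1254 CPM, and those of stem and progenitor cells. The neutrophil markers, at 34088 to 74288 beside 59012 to 81585 CPM, overlapped with the controls, and 13 of 13 had a fitted value below control. The part of these cells was not tested.

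After MI 18 members lay above and 20 below control, with a median log2 fold change of -0.05 beside 0.00 for all genes. Of all genes 50.04% lay above control. At an unadjusted p under 0.05 there was 1 member, Kel, which was lower (2.63%, beside 2.8% of all genes). The libraries did not overlap with control for 1 member, Epb41, which was higher, and for 0 lower; over all genes these shares were 4.27% and 4.59%. Leaving out MI replicate 4 gave a median of 0.07, and leaving out control replicate 4 gave 0.05. B cell markers were below all controls after MI, at 209 to 460.5 beside 473 to 693 CPM, with 8 of 8 below control and 6 at an unadjusted p under 0.05. Markers of stem and progenitor cells were above all controls (118 to 134 CPM), and neutrophil markers, at 64444 to 99231 CPM, overlapped with them. Their part was not tested. The plot of differences from control shows the 3 comparisons side by side, which share their control libraries.

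**Figure D2:**
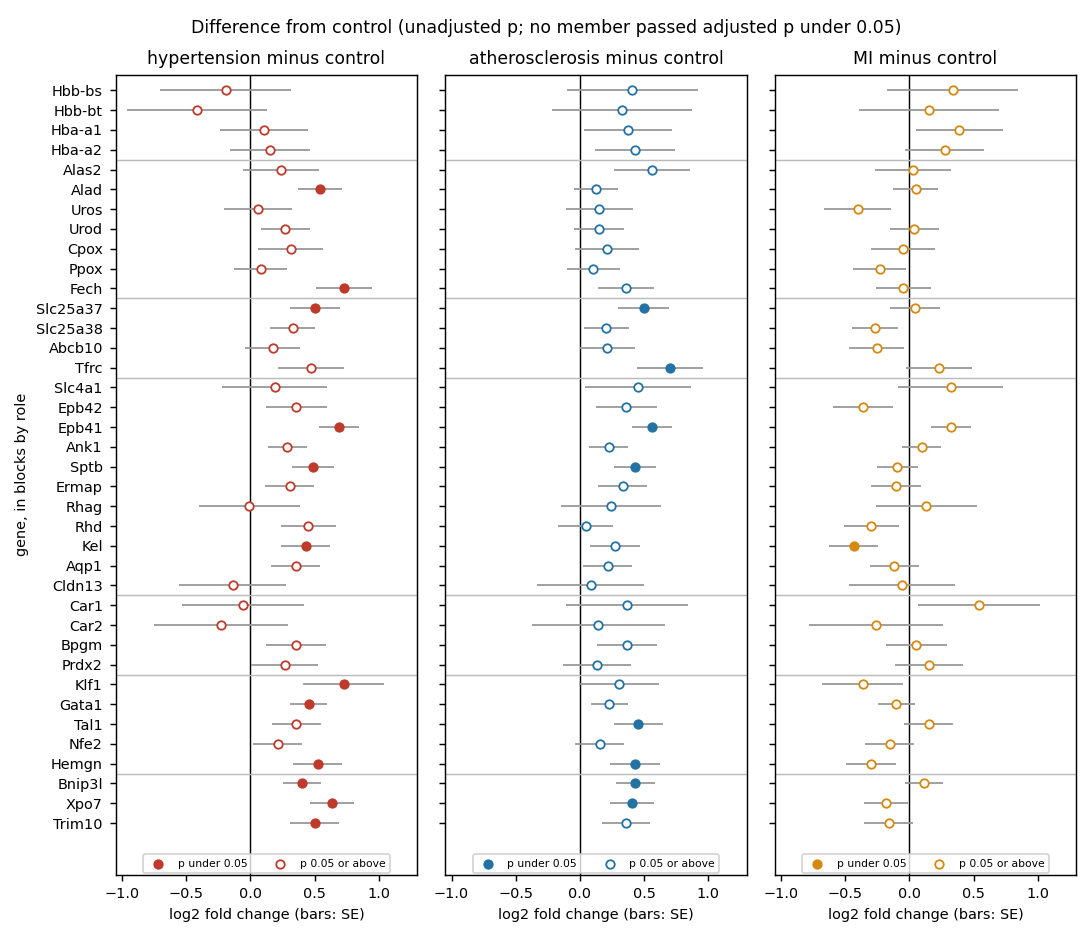
Log2 fold change of 38 members against the 3 controls (x axis; bars, SE) for hypertension, atherosclerosis and MI, with genes in blocks by role. Filled points have an unadjusted p under 0.05: 12 members in hypertension, 8 in atherosclerosis and 1 after MI, and none passed after adjustment.

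The globins, which carry oxygen once joined to heme, varied widely between libraries of the same group. Hbb-bs was at 7086, 2977 and 4249 CPM in the control replicates 2, 3 and 4, 5079, 4098 and 3348 in hypertension, 2203, 11202 and 5581 in atherosclerosis and 9688, 4473 and 3915 after MI. The highest libraries came from 3 groups (atherosclerosis replicate 3, MI replicate 2 and control replicate 2), and every disease group overlapped with the controls. The log2 fold change of Hbb-bs was -0.19 (SE 0.51, unadjusted p = 0.71) in hypertension, 0.41 (SE 0.51, unadjusted p = 0.44) in atherosclerosis and 0.34 (SE 0.51, unadjusted p = 0.52) after MI. Hbb-bt was at 2395, 960.4 and 1483 CPM in the control replicates 2, 3 and 4, 1490, 1216 and 917 in hypertension, 513, 3355 and 2199 in atherosclerosis and 2883, 1378 and 1110 after MI. It was low in atherosclerosis replicate 2 and high in replicate 3 of the same group. Its log2 fold change was -0.42, 0.33 and 0.15 in the 3 comparisons, each with an SE of 0.55.

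Hba-a1 was at 2593, 1313 and 1695 CPM in the control replicates 2, 3 and 4, 2160, 1789 and 2076 in hypertension, 1576, 3757 and 1919 in atherosclerosis and 3362, 2004 and 1963 after MI. Hba-a2 was at 1413, 707 and 925 CPM in the control replicates 2, 3 and 4, 1187, 981 and 1215 in hypertension, 918, 2104 and 1084 in atherosclerosis and 1456, 1106 and 1118 after MI. Both alpha-globins were lowest in control replicate 3 and highest in atherosclerosis replicate 3, and their groups overlapped. The log2 fold changes of Hba-a1 were 0.10 (SE 0.34, unadjusted p = 0.76), 0.37 (SE 0.34, unadjusted p = 0.29) and 0.39 (SE 0.34, unadjusted p = 0.28) in hypertension, atherosclerosis and MI, and those of Hba-a2 were 0.15, 0.43 and 0.27. Without atherosclerosis replicate 3 the log2 fold change of all 4 globins in atherosclerosis was below 0, from -0.29 (Hbb-bs) to -0.02 (Hba-a2). Counts of the beta-globins exceeded those of the alpha-globins by 1.09-fold (atherosclerosis replicate 2) to 2.61-fold (MI replicate 2), with a mean of 2.17 ± 0.21 in controls and 1.73 ± 0.37 in hypertension (SD, n = 3). The ratio of Hba-a1 to Hba-a2 counts was 1.71 to 1.86 in 11 libraries and 2.31 in MI replicate 2, and that of Hbb-bs to Hbb-bt was 2.54 to 4.29.

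Among the 7 enzymes of heme synthesis, those of the ends of the pathway differed in how they lay against control in hypertension. Alas2, the erythroid enzyme that makes the first precursor, was at 566, 392 and 663 CPM in the control replicates 2, 3 and 4, 693, 608 and 610.3 in hypertension, 534, 765 and 1096 in atherosclerosis and 738, 561 and 353 after MI. Its groups overlapped, and the log2 fold change was 0.24 (SE 0.30, unadjusted p = 0.44) in hypertension, 0.56 (SE 0.30, unadjusted p = 0.0809) in atherosclerosis and 0.03 (SE 0.30, unadjusted p = 0.93) after MI. Fech, which inserts iron into protoporphyrin in the last step, was at 1377, 1394 and 2029 CPM in the control replicates 2, 3 and 4, 2926, 2543 and 2489 in hypertension, 2280, 1861 and 2023 in atherosclerosis and 1431, 1952 and 1258 after MI. All 3 hypertension libraries lay above every control, and Fech had the third smallest p of the members there, with a log2 fold change of 0.73 (SE 0.22, unadjusted p = 0.00513) and an adjusted p of 0.95 with the edgeR quasi-likelihood test. In atherosclerosis it was 0.36 (SE 0.22, unadjusted p = 0.12) and after MI -0.05 (SE 0.22, unadjusted p = 0.83). The ratio of Alas2 to Fech counts was 0.237, 0.239 and 0.245 in the hypertension libraries and 0.411, 0.281 and 0.327 in controls.

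Alad, which joins the first precursor into a pyrrole, averaged 460.5 ± 44.7 CPM in controls and 671 ± 59.4 CPM in hypertension (SD, n = 3), without overlap, with a log2 fold change of 0.54 (SE 0.17, unadjusted p = 0.00776). In atherosclerosis it was 0.13 and after MI 0.05. Urod and Cpox, which shape the side chains of the ring, did not overlap with controls in hypertension either, with log2 fold changes of 0.27 and 0.31 and unadjusted p of 0.18 and 0.23. Uros (0.06) and Ppox (0.08), which close and oxidize the ring, overlapped. After MI the lowest value of the pathway was that of Uros at -0.41 (SE 0.26, unadjusted p = 0.15).

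Tfrc, the transferrin receptor that takes up iron, was at 264, 284 and 385 CPM in the control replicates 2, 3 and 4, 344, 412 and 539 in hypertension, 626, 426 and 464 in atherosclerosis and 502, 317 and 274 after MI. The atherosclerosis libraries all exceeded the controls, and the other disease groups overlapped with them. Its log2 fold change was 0.70 (SE 0.26, unadjusted p = 0.0175) in atherosclerosis, the third smallest p of the members there (adjusted p = 0.71 with the edgeR quasi-likelihood test), 0.47 (SE 0.26, unadjusted p = 0.0884) in hypertension and 0.23 (SE 0.26, unadjusted p = 0.39) after MI. Slc25a37 (mitoferrin 1), which brings iron into the mitochondrion, averaged 356 ± 53.6 CPM in controls, 505 ± 117 in hypertension, 503 ± 66.0 in atherosclerosis and 367 ± 54.7 after MI. It did not overlap with control in hypertension (log2 fold change 0.50, SE 0.20, unadjusted p = 0.0243) or in atherosclerosis (0.50, SE 0.20, unadjusted p = 0.0258). Slc25a38, which carries glycine for heme synthesis, had a log2 fold change of 0.33 in hypertension without overlap, and Abcb10, which binds and stabilizes mitoferrin, had 0.17 with overlap.

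**Figure D3:**
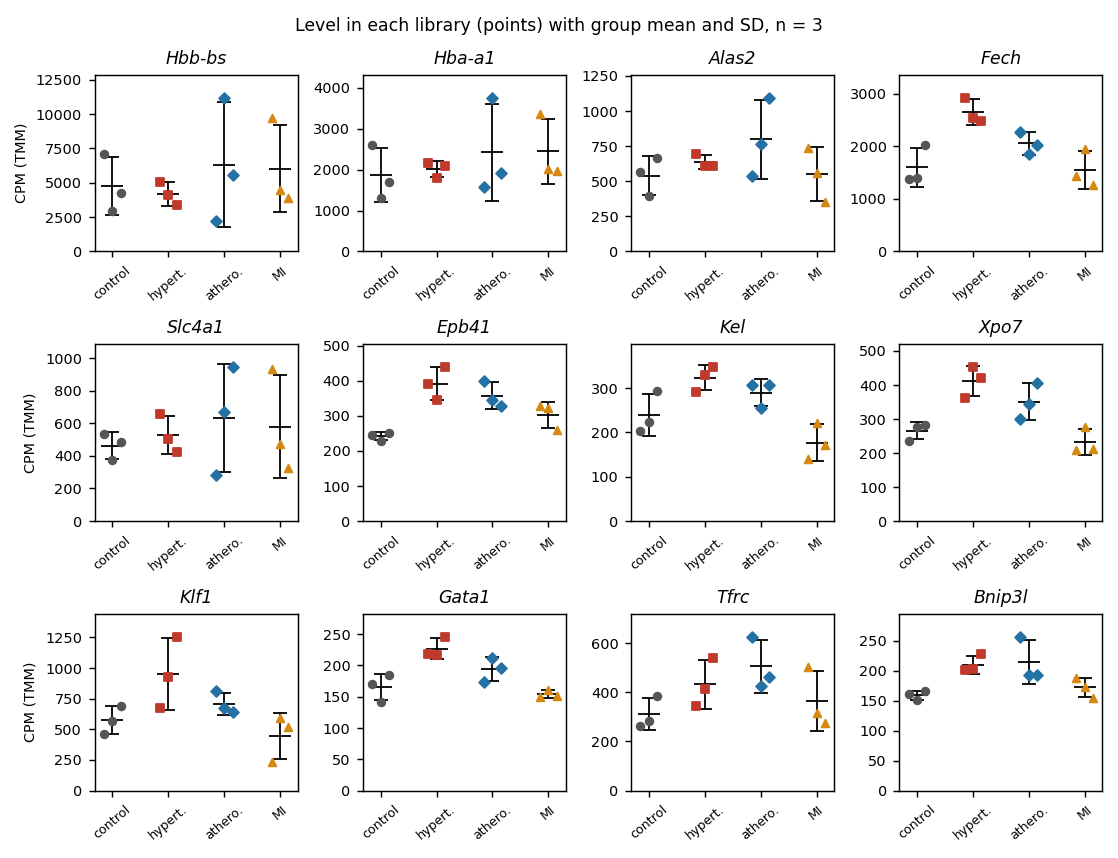
Level of 12 members in each library (points; y axis, TMM-normalized CPM from 0) by group, with the group mean and SD (n = 3). Epb41 lay above all controls in the 3 disease groups, and Xpo7 and Bnip3l in hypertension and atherosclerosis. Fech and Gata1 did so in hypertension alone, and Tfrc in atherosclerosis alone. Hbb-bs, Alas2 and Slc4a1 spread most in atherosclerosis and after MI.

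At the membrane, Epb41 was the one member whose libraries did not overlap with control in any of the 3 comparisons. It encodes protein 4.1, which ties spectrin to actin, and it is also made in many other cell types. Epb41 was at 247, 229 and 252 CPM in the control replicates 2, 3 and 4, 393, 346 and 439.5 in hypertension, 401, 344 and 329 in atherosclerosis and 329, 322 and 261 after MI. Every library of each disease group lay above every control library. It had the smallest p of all 15999 genes in hypertension, with a log2 fold change of 0.69 (SE 0.15, unadjusted p = 0.000613), and the smallest of the members in atherosclerosis, 0.56 (SE 0.15, unadjusted p = 0.00306). After MI it was 0.32 (SE 0.15, unadjusted p = 0.0556), the second smallest. The adjusted p were 0.95, 0.40 and 1.0 with the edgeR quasi-likelihood test, and over the alternatives they ranged from 0.12 to 1.0 in hypertension and from 0.07 to 0.98 in atherosclerosis.

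Slc4a1, the anion exchanger band 3, was at 532, 372 and 485 CPM in the control replicates 2, 3 and 4, 657, 506 and 423 in hypertension, 285, 672 and 946 in atherosclerosis and 934, 475 and 327 after MI. It was high in atherosclerosis replicate 4 and MI replicate 2, its groups overlapped, and the log2 fold changes were 0.19 (SE 0.41, unadjusted p = 0.65), 0.45 (SE 0.41, unadjusted p = 0.29) and 0.32 (SE 0.41, unadjusted p = 0.45) in hypertension, atherosclerosis and MI. Kel, the Kell blood group endopeptidase, was at 203, 223 and 293 CPM in the control replicates 2, 3 and 4, 292, 330.3 and 347 in hypertension, 307, 255 and 308 in atherosclerosis and 139.9, 221 and 171 after MI. MI replicates 2 and 4 were the lowest libraries of the series, and MI replicate 3 was within the control range. Kel had the smallest p of the members after MI, -0.43 (SE 0.19, unadjusted p = 0.0422), and it was 0.43 (SE 0.19, unadjusted p = 0.0435) in hypertension and 0.28 (SE 0.19, unadjusted p = 0.18) in atherosclerosis.

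Sptb, the beta chain of spectrin, averaged 144 ± 16.4 CPM in controls, 202 ± 31.1 in hypertension and 194 ± 23.9 in atherosclerosis, and did not overlap with control in either, with log2 fold changes of 0.49 (SE 0.16, unadjusted p = 0.0106) and 0.43 (SE 0.16, unadjusted p = 0.0202). Ank1, the ankyrin that anchors band 3 to spectrin, and Epb42, which binds both, had log2 fold changes of 0.29 and 0.36 in hypertension, the first without overlap. The 3 hypertension libraries also exceeded the controls for Rhd (0.45), for the water channel Aqp1 (0.35) and for Ermap (0.31), an erythroid membrane protein of the butyrophilin kind. Rhag, which joins Rhd in the Rh complex, was at -0.01 and Cldn13, a claudin, at -0.14, with overlap. In atherosclerosis the 11 membrane members lay between 0.05 (Rhd) and 0.56 (Epb41), and after MI between -0.43 (Kel) and 0.32 (Epb41).

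Of the red cell enzymes, Car2, which hydrates carbon dioxide, averaged 11371 ± 2319 CPM in controls, 9703 ± 3103 in hypertension, 12564 ± 9467 in atherosclerosis and 9498 ± 2115 after MI. The atherosclerosis libraries ran from 2843 CPM in replicate 2 to 21754 in replicate 3, the lowest and the highest of the series. Its relative Car1 ran from 187 CPM in atherosclerosis replicate 2 to 904 in MI replicate 2, and neither was apart from controls in any group. Bpgm, which makes the bisphosphoglycerate that loosens oxygen from hemoglobin, did not overlap with control in hypertension, with a log2 fold change of 0.35 (SE 0.24, unadjusted p = 0.16). Prdx2, a peroxidase that removes hydrogen peroxide, was at 0.27, 0.13 and 0.15 in hypertension, atherosclerosis and MI.

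Of the regulators, Klf1, which activates beta-globin, was at 464, 569 and 694 CPM in the control replicates 2, 3 and 4, 673, 929.6 and 1256 in hypertension, 812, 675 and 643 in atherosclerosis and 232, 588 and 520.4 after MI. It was highest in hypertension replicate 4 and lowest in MI replicate 2, and hypertension replicate 2 lay within the control range. Its log2 fold change was 0.73 (SE 0.31, unadjusted p = 0.0374) in hypertension, 0.30 (SE 0.31, unadjusted p = 0.35) in atherosclerosis and -0.36 (SE 0.31, unadjusted p = 0.26) after MI. Gata1, the central erythroid transcription factor, was at 169.9, 142 and 184 CPM in the control replicates 2, 3 and 4, 219, 216 and 246 in hypertension, 174, 212 and 196 in atherosclerosis and 149, 161 and 152 after MI. All hypertension libraries exceeded the controls, whereas the other groups overlapped with them. Its log2 fold change was 0.46 (SE 0.14, unadjusted p = 0.00743) in hypertension, 0.23 (SE 0.14, unadjusted p = 0.14) in atherosclerosis and -0.10 (SE 0.14, unadjusted p = 0.49) after MI.

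Hemgn, a nuclear protein of erythroid cells, was at 349, 302 and 426 CPM in the control replicates 2, 3 and 4, 456, 453 and 638 in hypertension, 522, 457 and 472 in atherosclerosis and 250.2, 350.1 and 274 after MI. It lay above the controls without overlap in hypertension (0.52, SE 0.19, unadjusted p = 0.0183) and in atherosclerosis (0.43, SE 0.19, unadjusted p = 0.0449), and had the third smallest p of the members after MI (-0.30, SE 0.19, unadjusted p = 0.14), with overlap. Tal1, a partner of GATA1, averaged 39.8 ± 5.71 CPM in controls and 54.5 ± 4.07 CPM in atherosclerosis, without overlap, with a log2 fold change of 0.45 (SE 0.19, unadjusted p = 0.0334) there and 0.36 (SE 0.19, unadjusted p = 0.0818) in hypertension. Nfe2, which binds globin enhancers and also serves megakaryocytes, was at 0.21, 0.15 and -0.15 in the 3 comparisons.

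The 3 maturation genes were each apart from controls in hypertension. Xpo7, a nuclear exportin that takes part in condensing the erythroblast nucleus, was at 236, 277 and 282 CPM in the control replicates 2, 3 and 4, 363, 452 and 419.6 in hypertension, 299.9, 345 and 407 in atherosclerosis and 210.1, 277 and 213 after MI. Hypertension and atherosclerosis libraries lay above every control, and MI libraries overlapped with them. Its log2 fold change was 0.64 (SE 0.17, unadjusted p = 0.00266) in hypertension, the second smallest p of the members, 0.40 (SE 0.17, unadjusted p = 0.0349) in atherosclerosis and -0.18 (SE 0.17, unadjusted p = 0.30) after MI. Bnip3l, which marks mitochondria for removal, was at 161, 151 and 166 CPM in the control replicates 2, 3 and 4, 201, 203 and 228 in hypertension, 257, 194 and 194 in atherosclerosis and 189, 173 and 156 after MI. It too exceeded the controls in hypertension (0.40, SE 0.15, unadjusted p = 0.0199) and in atherosclerosis (0.43, SE 0.15, unadjusted p = 0.0137, the second smallest p of the members), and after MI it was 0.11 with overlap. Trim10, a RING protein needed for terminal erythroid differentiation, was at 0.50 in hypertension (unadjusted p = 0.0207) and 0.36 in atherosclerosis, where 1 library was within the control range.

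The members did not vary as one block over the 12 libraries. As a description over 12 libraries that share groups and sequencing depth, and without a p, Pearson's r of log2 CPM between a member and the mean of the other members was highest for Urod (0.92), Ermap (0.90), Trim10 (0.89) and Cpox (0.89) and lowest for Klf1 (0.21) and Nfe2 (-0.07), with a median of 0.67. Klf1 and Car2 were taken as references after their values had been seen. With Klf1, r was 0.91 for Kel, 0.89 for Nfe2, 0.87 for Hemgn and 0.81 for Slc25a38, and negative for all 4 globins (-0.56 for Hbb-bs to -0.24 for Hba-a2) and for Car1 (-0.64). With Car2, r was 0.97 for Cldn13, 0.89 for Hbb-bt and 0.82 for Hbb-bs, and -0.58 for Nfe2. Without the 2 libraries farthest from the median of the reference, r with Klf1 was 0.86 for Kel and -0.27 for Hbb-bs, and r with Car2 was 0.93 for Cldn13 and 0.60 for Hbb-bs. The ratio of Hbb-bs to Klf1 counts ran from 2.67 in hypertension replicate 4 to 41.8 in MI replicate 2, and that of Car2 to Klf1 from 3.50 in atherosclerosis replicate 2 to 47.4 in MI replicate 2. Between Car2 and Klf1 themselves r was -0.28. Without the 2 libraries farthest from the median of Klf1 it was -0.21, as it was for Car1 and Klf1. Over all members r was above 0 for 26 with Klf1 and for 27 with Car2, so that the references do not split the members into opposed sets. Ermap, with r of 0.49 and 0.52, followed both. The plot of members against Klf1 shows 4 of these genes.

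**Figure D4:**
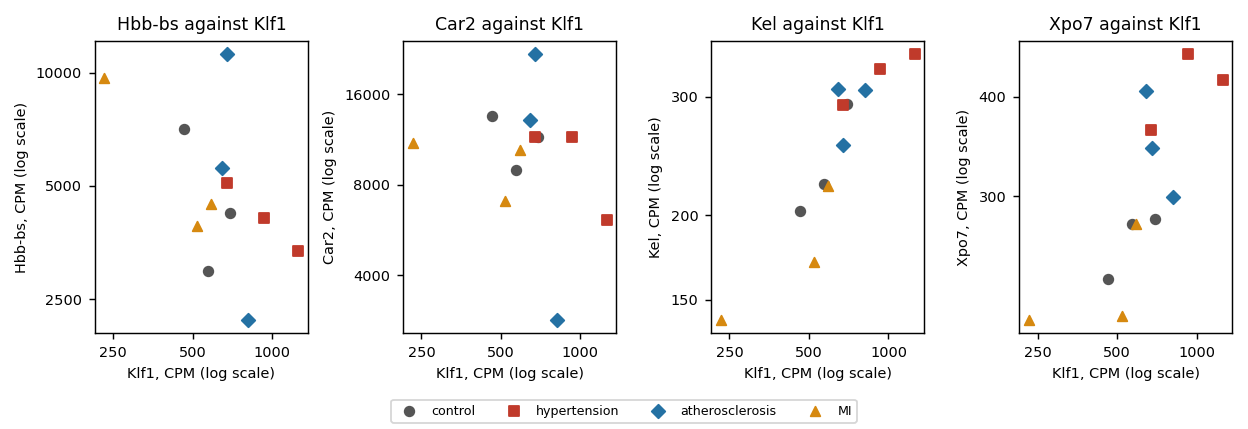
Level of Hbb-bs, Car2, Kel and Xpo7 (y axes, CPM, log scale) against that of Klf1 (x axes, CPM, log scale) in 12 libraries, 1 point a library, with group by colour and shape. Kel and Xpo7 were high where Klf1 was high (r = 0.91 and 0.79), and Hbb-bs was highest among libraries with middle or low Klf1 (r = -0.56).

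Summed markers of several cell types moved with some of these genes, and the lists and members named below are a selection of those compared. Over the 12 libraries, r with the summed neutrophil markers was 0.73 for Hbb-bs, 0.64 for Car2, -0.82 for Klf1, -0.82 for Kel and -0.64 for Xpo7, and -0.06 for the mean of the members. For Epb41 it was -0.54 and with the macrophage markers 0.73. The mean of the members had r of 0.44 with the macrophage markers, and 0.86 without the 2 libraries farthest from the median of their sum. Without the 2 libraries farthest from the median of the marker sum, r with neutrophil markers was 0.55 for Hbb-bs, 0.09 for Car2, -0.79 for Klf1, -0.83 for Kel, -0.76 for Xpo7 and -0.16 for Epb41, and r of Epb41 with macrophage markers was 0.62. Monocyte markers had r of -0.83 with Klf1 and -0.72 with Kel, and -0.61 and -0.43 without the 2 libraries farthest from the median of their sum. B cell markers had 0.76 with Klf1, 0.66 with Kel and -0.61 with Hbb-bs, and 0.51, 0.32 and -0.095 without the 2 farthest libraries. Proliferation markers had r of 0.66 with Kel, 0.61 with Xpo7, 0.58 with Klf1 and 0.56 with the mean of the members. Without the 2 farthest libraries these were 0.595, 0.48, 0.70 and 0.35. T and NK cell markers had r of -0.64 with Epb41, and -0.48 without the 2 farthest libraries. Endothelial markers had r of 0.55 with Car2 and 0.40 with Hbb-bs, and 0.62 with each without the 2 farthest libraries. For stem and progenitor markers and Hbb-bs r was 0.26, and 0.84 without the 2 farthest libraries. The part of these cells in the results was not tested.

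Among the 10 genes outside the list whose log2 CPM followed the mean of the members most closely were Gclm (r = 0.97), Tspan33 (0.96), March5 (0.95), Dhrs11 (0.94), Epor (0.94), Bsdc1 (0.92), Lap3 (0.92), Bag2 (0.92) and Tmcc2 (0.91), over 12 libraries. Epor is the erythropoietin receptor.

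Another 60 erythroid genes outside the list were examined in the same fit, and 55 were tested. These too were chosen with earlier results of these data known, so that they are not an independent check of the members. In hypertension 40 of 55 lay above control, with a median log2 fold change of 0.24, and 0 were called; 15 higher and 1 lower had an unadjusted p under 0.05 (29.1%, beside 3.71% of all genes). The smallest p were those of Ube2o (0.65, SE 0.15, unadjusted p = 0.000964), a ubiquitin ligase that clears ribosomes from reticulocytes, Trim58 (0.92, SE 0.23, unadjusted p = 0.00142), a ligase that acts on dynein before enucleation, and Ube2l6 (0.70, SE 0.21, unadjusted p = 0.0052), a ubiquitin-conjugating enzyme. In atherosclerosis 45 of 55 lay above control (median 0.21), 10 had an unadjusted p under 0.05, all higher (18.2%, beside 5.97% of all genes), and 1 was called. That gene was Gata2, the GATA factor of progenitors, mast cells and basophils, which GATA1 replaces during erythroid differentiation. Gata2 was at 20.2, 18.4 and 22.1 CPM in the control replicates 2, 3 and 4, 26.5, 25.4 and 30.9 in hypertension, 35.0, 44.0 and 46.5 in atherosclerosis and 18.1, 22.3 and 25.8 after MI. It rose in atherosclerosis, where every library exceeded all others of the series, by 1.05 on the log2 scale (SE 0.17, adjusted p = 0.0342 with the edgeR quasi-likelihood test). The call held in 8 of 14 alternatives and was lost when only the 2 groups were fitted (adjusted p = 0.206) and when control replicate 2, 3 or 4 or atherosclerosis replicate 3 or 4 was left out (0.107 to 0.245). Markers of stem and progenitor cells (8 of 8 past the filter) summed to 134 to 153 CPM in atherosclerosis and 113 to 116 in controls, and those of eosinophils and basophils, a list that holds Gata2 itself, to 10843 to 18690 and 12891 to 13017 CPM. Their part was not tested.

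Next in atherosclerosis were Ube2o (0.85, SE 0.15, unadjusted p = 9.52e-05, adjusted p = 0.0563 with the edgeR quasi-likelihood test) and Sox6 (0.49, SE 0.16, unadjusted p = 0.00829), a regulator that silences embryonic globin. After MI 25 of 55 lay above control (median -0.02), with 0 at an unadjusted p under 0.05 (2.8% of all genes), and the smallest p were those of the heme transporter Abcb6 (-0.48, SE 0.24, unadjusted p = 0.0695), of Gfi1b (-0.34, SE 0.19, unadjusted p = 0.10), a repressor that works with GATA1, and of the kinase Pim1 (0.52, SE 0.31, unadjusted p = 0.11).

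Contrasts between pairs of disease groups test the difference of their effects, and no member was called in them in the main fit (edgeR quasi-likelihood test). Alternatives called up to 7 for hypertension against MI and up to 3 for MI against atherosclerosis, the most without a filter on low counts. Between hypertension and MI 30 of 38 members were higher in hypertension, with a median of 0.37 beside -0.01 for all genes. Of all genes 49.2% were higher in hypertension. A total of 15 had an unadjusted p under 0.05 (39.5%), all higher in hypertension, beside 8.41% of all genes; at an adjusted p under 0.05, 0% of all genes were called. Xpo7 (0.82, SE 0.17, unadjusted p = 0.000365), Kel (0.87, SE 0.19, unadjusted p = 0.000632) and Hemgn (0.82, SE 0.20, unadjusted p = 0.000966) had the smallest p, and Klf1 was the largest at 1.09 (SE 0.32, unadjusted p = 0.00421). The 4 globins lay on the other side, from -0.57 (Hbb-bt) to -0.12 (Hba-a2). DESeq2 called Xpo7, Kel and Hemgn in this comparison, with adjusted p of 0.0205, 0.0374 and 0.0497. The quasi-likelihood test without a filter on low counts called 7 members, among them Klf1 (adjusted p = 0.000105) and Kel (0.00315).

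Between MI and atherosclerosis 3 of 38 members were higher after MI, beside 47.7% of all genes. The other 35 were lower, and the median of the members was -0.33 beside -0.02 for all genes. At an adjusted p under 0.05, 0.269% of all genes were called. A total of 11 members had an unadjusted p under 0.05 (28.9%), all lower after MI, beside 12.7% of all genes. The difference between these shares did not hold without atherosclerosis replicate 3 (6 members, 15.8%, beside 18.8% of all genes) or replicate 4 (5 members, 13.2%, beside 12.6%). It was 5 members (13.2%) beside 10.3% without MI replicate 4, 5 beside 7.38% when the 2 groups were fitted alone, and 19 of 38 members beside 12.75% without atherosclerosis replicate 2. Hemgn (-0.73, SE 0.20, unadjusted p = 0.00235) and Kel (-0.71, SE 0.19, unadjusted p = 0.00283) had the smallest p. The likelihood-ratio test of edgeR called Hemgn (adjusted p = 0.0477), and DESeq2 called Hemgn (0.026) and Kel (0.0364). Gata2 fell by 0.92 on the log2 scale from atherosclerosis to MI (adjusted p = 0.041 with the edgeR quasi-likelihood test), a call that was lost when MI replicate 2, 3 or 4 or atherosclerosis replicate 3 or 4 was left out and when the 2 groups were fitted alone (0.0792 to 0.357). Between hypertension and atherosclerosis 19 members lay on each side, with a median of 0.00, and 45.4% of all genes were higher in hypertension. At an adjusted p under 0.05, 0.0625% of all genes were called. There was 1 member (Alad, 0.42, SE 0.17, unadjusted p = 0.031) with an unadjusted p under 0.05, beside 5.94% of all genes. Without atherosclerosis replicate 2 there were 5 members (13.2%) beside 13.7% of all genes.

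Members with longer transcripts lay higher in hypertension. Across the 38 members, which are not independent of each other, the correlation of the log2 fold change with log2 transcript length was 0.57 in hypertension, 0.29 in atherosclerosis and -0.20 after MI, beside 0.04, 0.07 and -0.18 over all genes. With GC content it was -0.05, -0.38 and -0.17 beside 0.07, -0.07 and -0.00. The globins, Cldn13 and Car1 are among the shortest and Xpo7, Epb41 and Fech among the longest of the members, with merged exons of 667 to 1248 and of 13838 to 19005 bases. The part of transcript length in the result was not tested.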

How the data were processed

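RNA of sorted bone marrow cells from 12 mice was sequenced by the authors as single-end reads of 50 bases, aligned to GRCm38.p6 with STAR 2.7.3a and deposited as raw read counts per gene of Ensembl 98; reads that mapped to more than 1 place were not counted, and the strand setting is not given in the sources used here. Symbols and positions came from GENCODE M21 (GRCm38), which matched 55240 of 55421 IDs. Genes were filtered with filterByExpr (15999 kept), TMM factors were 0.934 to 1.06, and all 4 groups were fitted together with edgeR 4.0.16 (R 4.3.3), with quasi-likelihood tests for 6 comparisons and Benjamini-Hochberg adjustment over all genes tested. The study used edgeR's likelihood-ratio test, which was run as an alternative beside DESeq2 1.42.0, RLE size factors, other filters, fits of 2 groups, a block on replicate numbers, scaling without the members and leaving out each library. The pipeline was tested on simulated data. Correlations used log2(CPM + 0.1). The count of 3 reads taken as the smallest measured amount covers counting error only. Values in every library are given for 10 preset members and for the 3 members with the smallest p against control. The members and lists were chosen with earlier results of these data known. Likewise the 3 other erythroid genes with the smallest p, and the 10 genes with the highest r to the members, are named, except for an item that is not reported here.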

Additional observations from a re-analysis of the deposited data

How the results depend on the processing

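No called result changed direction under an alternative, but no member was called in the main fit, so that this does not bear on the members. Among the results not called, the sign of the members' median changed in 2 of 14 alternatives after MI. For hypertension against atherosclerosis it changed in 4. The members' median log2 fold changes stayed within 0.244 to 0.397 in hypertension, 0.19 to 0.498 in atherosclerosis, -0.135 to 0.068 after MI, -0.109 to 0.12 for hypertension against atherosclerosis, 0.287 to 0.406 for hypertension against MI and -0.519 to -0.263 for MI against atherosclerosis over 14 alternatives. The number of genes called moved more. With the likelihood-ratio test it was 81 in atherosclerosis (23 with the quasi-likelihood test), 1 after MI (0), 70 for hypertension against atherosclerosis (10), 2 for hypertension against MI (0) and 274 for MI against atherosclerosis (43). With DESeq2 it was 81, 1, 76, 22 and 311 in the same order. Without a filter on low counts it was 432, 130, 235, 422 and 790, and 170 in hypertension (0). Fitting 2 groups alone gave 4 in atherosclerosis, 1 after MI and 3 for MI against atherosclerosis. Leaving out 1 library gave 2 to 34 in atherosclerosis, 3 to 36 for hypertension against atherosclerosis and 8 to 93 for MI against atherosclerosis. Among the members, 3 (DESeq2) and 7 (no filter) were called for hypertension against MI, and for MI against atherosclerosis 1 (likelihood-ratio test, Hemgn), 2 (DESeq2, Kel and Hemgn) and 3 (no filter). The cause of these moves was not tested. With the replicate number as a block, 7 genes were called in atherosclerosis and 22 for MI against atherosclerosis, and the other counts kept within 1.5 times. The deviations of libraries that share a number correlated with r between -0.282 and 0.296 (median -0.024, 5 of 18 pairs over 0.1), so that the numbers were not taken to pair the mice.

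Limits: 3 libraries a group leave 8 residual degrees of freedom. Reads shared between globin copies were not counted, marker sums of other cells moved with the results, and cell number and RNA per cell cannot be told apart in bulk RNA.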
